A study of Mus musculus with 10 samples.

Results

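The Krüppel-like factors described here were 9 genes, *Klf2*, *Klf3*, *Klf4*, *Klf5*, *Klf6*, *Klf7*, *Klf9*, *Klf10* and *Klf13*, of the 12207 genes tested on these arrays. Members were taken as every probe set that the platform annotation assigns to 1 of these symbols alone, which gave 33 of the 45101 probe sets. Of these, 31 passed the filter on low signals, and each of the 9 genes kept at least 1. *Klf3* and *Klf9* had 7 probe sets each, *Klf6* had 5, *Klf7* had 4, *Klf5* and *Klf13* had 3, *Klf4* had 2, and *Klf2* and *Klf10* had 1.

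RNA came from 5 sorted populations and was read on Affymetrix Mouse Genome 430 2.0 arrays, with 2 for each population. V6.5 ESCs, of 129xBL6 F1 background, were sorted undifferentiated as cKit+ SSEA+ cells after growth on mouse embryonic fibroblasts (MEFs). The other V6.5 arrays held day 6 cells from embryoid bodies (EBs), which were iPGCs sorted as positive for SSEA1 and bright for cKit, and somatic cells negative for both. The Oct4-Gfp line, listed as of mixed background, gave iPGCs positive for the Oct4 reporter and likewise bright for cKit, and somatic cells negative for both. iPGCs are primordial germ cells induced *in vitro*, and the somatic cells are a mixture of the EB cells negative for both markers of their sort. No ESC array of the Oct4-Gfp line was analysed here, so comparisons with ESCs stay within V6.5. Comparisons of the lines also compare sorts, and the 2 cannot be told apart. EBs were grown without leukemia inhibitory factor (LIF), and all populations were dissociated with trypsin and sorted by flow cytometry. Nothing states that replicates came from separate cultures, so p-values measure the spread between these arrays, which may be technical.

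Krüppel-like factors bind GC boxes and CACCC sequences in promoters through zinc fingers at their C-terminal ends, a DNA-binding domain that they share with the SP factors. *Klf2*, *Klf4* and *Klf5* encode activators that maintain naive pluripotency in mouse ESCs, where LIF raises *Klf4* through Stat3. *Klf6* and *Klf7* encode closely related activators. *Klf3* encodes a repressor that recruits the corepressor CtBP, and *Klf9*, *Klf10* and *Klf13* encode factors that can repress through the Sin3a corepressor.

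The promoters of 4 members are shown because these genes differed most between day 6 populations among the members with a promoter sequence at hand. Each is the 250 bases before the start of the gene, from RefSeq on GRCm38.p6, written along the gene's strand. They lie at chr8:72318812-72319061 (plus strand) for *Klf2*, chr4:55532476-55532725 (minus strand) for *Klf4*, chr13:5861239-5861488 (plus strand) for *Klf6* and chr19:23140976-23141225 (plus strand) for *Klf9*. Capitals mark, on either strand, the GC box GGGCGG, the CACCC box and the Stat motif TTCNNNGAA.
Klf2: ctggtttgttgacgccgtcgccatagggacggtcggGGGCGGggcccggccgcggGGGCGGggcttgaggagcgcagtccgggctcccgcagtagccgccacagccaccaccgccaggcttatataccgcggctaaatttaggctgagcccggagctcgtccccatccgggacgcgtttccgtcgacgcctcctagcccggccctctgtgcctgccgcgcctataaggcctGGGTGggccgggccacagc
Klf4: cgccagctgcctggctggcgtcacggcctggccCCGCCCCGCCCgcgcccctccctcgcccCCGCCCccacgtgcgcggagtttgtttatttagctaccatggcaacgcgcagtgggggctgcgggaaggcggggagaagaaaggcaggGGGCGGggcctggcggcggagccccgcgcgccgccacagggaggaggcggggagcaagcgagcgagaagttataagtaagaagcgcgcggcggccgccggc
Klf6: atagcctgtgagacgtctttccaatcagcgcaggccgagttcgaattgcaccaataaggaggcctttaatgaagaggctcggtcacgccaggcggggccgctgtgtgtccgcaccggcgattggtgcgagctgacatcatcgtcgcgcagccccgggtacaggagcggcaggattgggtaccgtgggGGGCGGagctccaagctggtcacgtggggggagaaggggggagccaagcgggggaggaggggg
Klf9: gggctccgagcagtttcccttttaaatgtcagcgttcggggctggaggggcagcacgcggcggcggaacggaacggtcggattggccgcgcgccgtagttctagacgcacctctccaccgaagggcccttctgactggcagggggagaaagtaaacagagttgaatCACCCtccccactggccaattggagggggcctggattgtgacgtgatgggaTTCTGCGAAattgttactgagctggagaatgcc

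RefSeq promoters matched 7 of the 9 members, and *Klf5* and *Klf10* were not matched. The GC box was found in 32.7% of all 32851 promoters, with 2 matches in *Klf2*, 4 in *Klf4* and 1 in *Klf6*. CACCC was found in 52.0% of all promoters and once each in *Klf2* and *Klf9*. The Stat motif was found in 7.02% of all promoters and, among the 7 members, once in *Klf9*. *Klf3* held 6 GC boxes and 5 CACCC matches, of which 1 pair of GC boxes stands directly end to end and a GC box and a CACCC match overlap. *Klf7* held 1 and 3, and *Klf13* held 3 and 1. A pair of GC boxes also overlaps in *Klf4*, as do a GC box and the CACCC match in *Klf13*. The sequence TGACG, part of the site of cAMP-responsive factors and left in lower case above, was found in 17.8% of all promoters and once each in *Klf2*, *Klf4*, *Klf9* and *Klf13*. TATAAA was found in 12.4% of all promoters and in none of these 7 windows. GC content was 71.2% in *Klf2*, 74% in *Klf4*, 64.8% in *Klf6* and 59.6% in *Klf9*, against a median of 52.4% over all promoters. A match describes the letters alone.

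Values are MAS5 signal intensities on a linear scale, set by the authors to the same trimmed mean on every array. Differences are log2 differences of the signal plus 14.8, and a difference was called where the limma p-value, adjusted over all 26368 tested probe sets, was under 0.05. Where a gene had several probe sets, the brightest on average represents it and is called the representative. Signals up to the 95th percentile of 44 olfactory receptor probe sets, 12.6 to 25.4 per array, were taken as background. Arrays of 1 group correlated at r between 0.971 and 0.988. Per array 30897 to 33670 probe sets exceeded background, and the median signal was 53.7 to 91.6, both lowest in Oct4-Gfp iPGC replicate 2. The ratio of 3' to 5' *Gapdh* signal, a sign of RNA integrity and amplification, was 1.28 and 1.30 in ESCs and 1.51 to 2.37 in the day 6 arrays. It was 1.51 and 1.63 in V6.5 iPGCs and 2.02 and 2.37 in Oct4-Gfp iPGCs, and its part in the results was not tested. Summed over 10 pluripotency and germ cell markers the signal was 27918 to 29596 in ESCs, 36007 to 36760 in iPGCs and 1711 to 3171 in somatic cells, and over 9 mesoderm and heart markers it was 626 to 668, 755 to 1392 and 21539 to 24111. In such bulk arrays fewer cells of a type and less RNA per cell cannot be told apart.

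*Klf2*, *Klf4*, *Klf5*, *Klf9* and *Klf10* were higher in iPGCs than in same-day somatic cells of both lines, and *Klf6* was lower. Against ESCs of the same line, iPGCs had less *Klf4* and *Klf5* and a difference in *Klf2* that did not pass the test, while *Klf3* was called higher by its representative alone. In numbers of genes, V6.5 iPGCs against V6.5 somatic cells gave 5 higher, 1 lower and 3 not called, where 22.2% of all probe sets were called higher and 23.2% lower. The Oct4-Gfp line gave 5 higher, 1 lower and 3 not called, against 19.4% and 27.6%. The median difference of the 9 genes was 0.82 and 0.75 in the 2 lines, against 0.0504 and -0.112 over all tested probe sets, and quantile normalization moved the latter to 0.0322. V6.5 somatic cells against ESCs gave 3 genes higher and 5 lower, where 30.1% of probe sets were higher and 27.2% lower, with a median of -0.83 against 0.0395. V6.5 iPGCs against ESCs gave 1 gene higher and 2 lower, where 15.6% were higher and 11.7% lower, with a median of 0.08 against 0.0713. These counts take 1 probe set a gene, while the shares are over all probe sets. Over the 31 member probe sets, V6.5 iPGCs against ESCs gave 3 higher and 8 lower (median -0.10). Among the lower were 4 of the 7 of *Klf9*, of which 1436952_at passed the filter through ESC arrays alone. V6.5 somatic cells against ESCs gave 8 higher and 16 lower, the latter again with 1436952_at. iPGCs against somatic cells gave 14 higher and 6 lower in V6.5 and 12 higher and 7 lower in Oct4-Gfp. Both counts of higher include 1452723_at of *Klf9*, which passed the filter through iPGC arrays alone. The 3 comparisons within V6.5 share arrays.

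**Figure D1:**
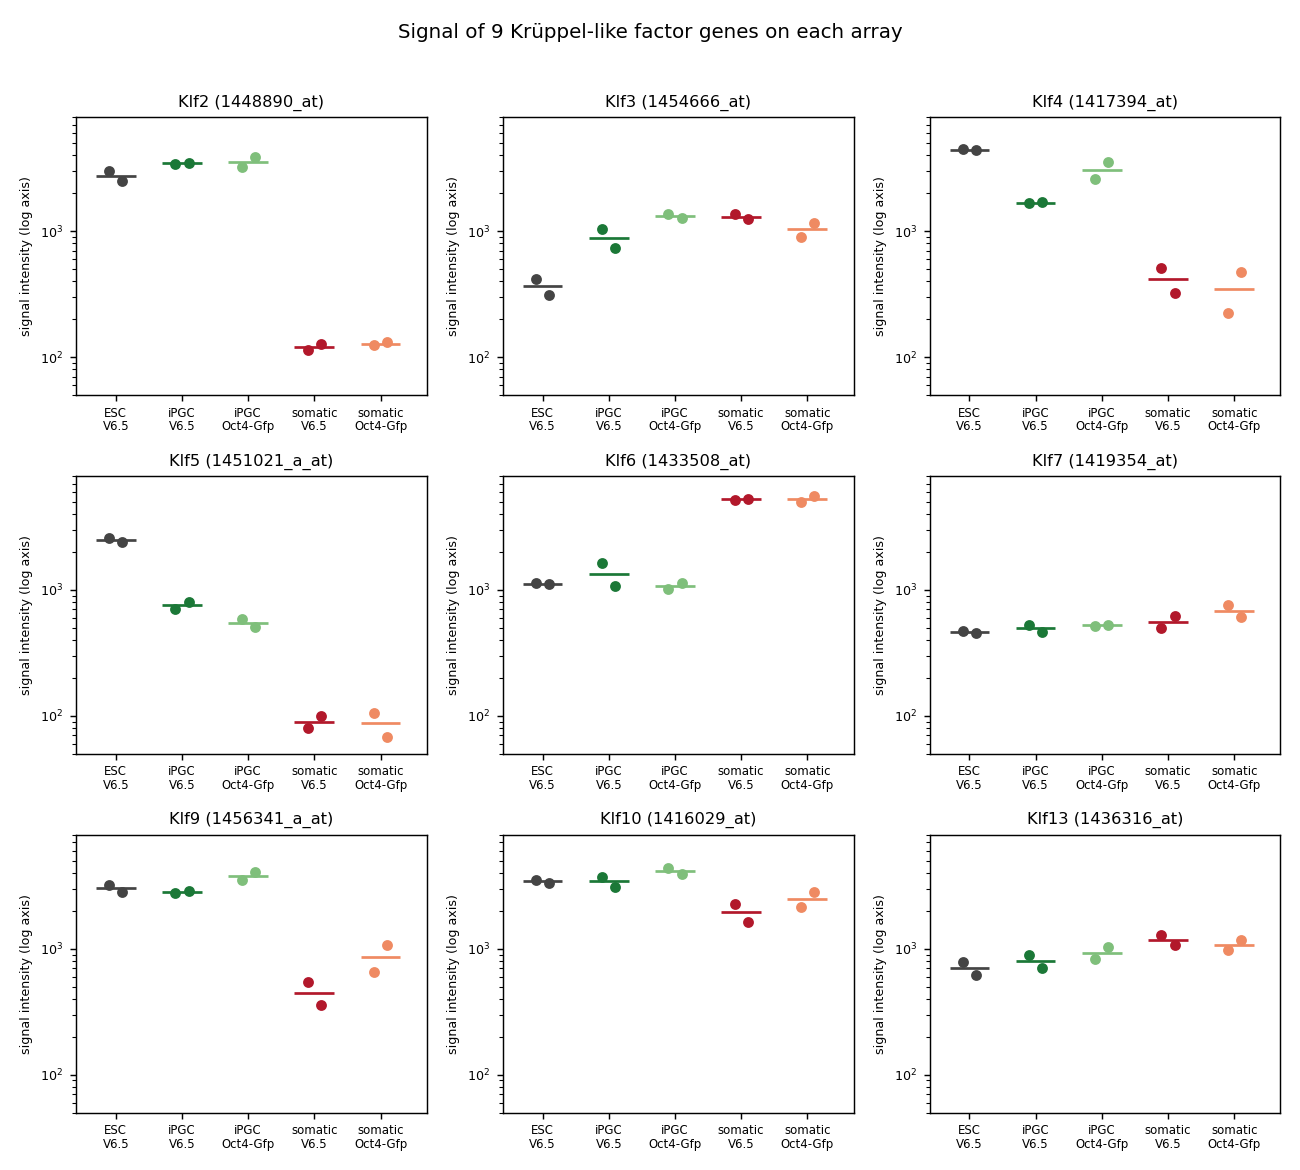
Signal intensity (log axis) of the representative probe set of each of the 9 genes on every array. Points are single arrays and bars are means of the 2 arrays of a group. *Klf2*, *Klf4*, *Klf5* and *Klf9* are lowest in somatic cells of both lines, *Klf6* is highest there, and *Klf7* spans only 459 to 759.7.

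*Klf2* encodes an activator of naive pluripotency genes that is also known for its role in endothelium. Its 1 probe set read 3004 and 2518 in ESCs, 3415 and 3493 in V6.5 iPGCs, 3223 and 3861 in iPGCs of Oct4-Gfp, 115 and 127 in V6.5 somatic cells and 125 and 131 in Oct4-Gfp somatic cells. The somatic arrays lay far below all others, and every iPGC array lay above both ESC arrays. Somatic cells were 20.4-fold lower than ESCs (log2 difference -4.35, SE 0.15, limma adjusted p = 1.22e-06). iPGCs exceeded somatic cells 25.6-fold in V6.5 (adjusted p = 1.57e-06) and 24.8-fold in Oct4-Gfp (adjusted p = 2.21e-06). Between iPGCs and ESCs the difference was 0.33 with a 95% interval from -0.02 to 0.67 (adjusted p = 0.139). Endothelial markers, summed over 10 genes, read 2226 to 2517 in ESCs, 1852 to 2702 in iPGCs and 2658 to 3805 in somatic cells. Of the 7 tested, 3 were higher and 2 lower in V6.5 iPGCs than in somatic cells, and 1 was higher and 3 were lower in Oct4-Gfp iPGCs than in somatic cells. Over all probe sets the shares were 22.2% and 23.2% in V6.5 and 19.4% and 27.6% in Oct4-Gfp. Of the 10, *Cdh5* and *Erg* lay within background on both ESC arrays, *Erg* and *Emcn* on all iPGC arrays and *Emcn* on all somatic arrays, and the part of endothelial cells in the *Klf2* signal was not tested.

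*Klf4*, a reprogramming factor, read 4456 and 4386 in ESCs, 1671 and 1697 in V6.5 iPGCs, 2612 and 3518 in iPGCs of Oct4-Gfp, 513 and 325 in V6.5 somatic cells and 223 and 476 in Oct4-Gfp somatic cells. ESCs were highest, iPGCs intermediate and somatic cells lowest, with no overlap between the 3 cell types. V6.5 iPGCs were 2.61-fold lower than ESCs (log2 difference -1.38, SE 0.34, limma adjusted p = 0.0223). This call was lost when either ESC array or either V6.5 iPGC array was left out, with adjusted p of 0.0868 and 0.0922 without ESC replicates 1 and 2 and 0.0700 and 0.0667 without iPGC replicates 1 and 2, while the difference stayed between -1.40 and -1.37. The second probe set, 1417395_at, read 4731 and 4288 in ESCs and 728 and 778 in V6.5 iPGCs. It gave a larger difference of -2.56 (adjusted p = 0.000533), which was called in all 18 alternatives run on single probe sets. Somatic cells were lower than ESCs by 3.39 on the log2 scale (10.5-fold, adjusted p = 0.000106). iPGCs exceeded somatic cells 4.01-fold in V6.5 (adjusted p = 0.00211) and 8.91-fold in Oct4-Gfp (adjusted p = 0.000216).

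*Klf5*, needed with *Klf4* and *Klf2* for ESC self-renewal, read 2566 and 2412 in ESCs, 712 and 796 in V6.5 iPGCs, 585 and 508 in iPGCs of Oct4-Gfp, 80.7 and 99.0 in V6.5 somatic cells and 106 and 68.4 in Oct4-Gfp somatic cells. It fell in 2 steps without overlap, from ESCs to iPGCs and from iPGCs to somatic cells. V6.5 iPGCs were 3.26-fold lower than ESCs (log2 difference -1.71, SE 0.20, limma adjusted p = 0.00145) and 7.36-fold higher than somatic cells (adjusted p = 2.37e-05). In Oct4-Gfp the iPGCs were 5.58-fold higher than somatic cells (adjusted p = 4.77e-05). Somatic cells were 24.0-fold lower than ESCs (adjusted p = 2.26e-06). The other 2 probe sets were dimmer, at 101 to 158 in ESCs, and were lower in somatic cells than in ESCs by 2.10 and 2.02 on the log2 scale. Their differences between iPGCs and ESCs were -0.76 and -0.67 and did not pass the test (adjusted p = 0.113 and 0.186). Against V6.5 somatic cells both were called higher in iPGCs, by 1.34 and 1.35 (adjusted p = 0.0097 and 0.0142). Against Oct4-Gfp somatic cells 1451739_at was called (1.21, adjusted p = 0.015), and 1430255_at was not (0.51, adjusted p = 0.262), with both Oct4-Gfp somatic arrays within background. Each of these 3 calls was lost in 2 or 3 alternatives, with adjusted p up to 0.0971.

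The genes of the LIF pathway and naive pluripotency network form a list of 21, all tested. In V6.5 iPGCs against ESCs 1 of them was higher and 7 were lower, with a median of -0.16, where 15.6% and 11.7% of all probe sets were. The 4 with the largest differences were *Socs3*, a feedback inhibitor induced by Stat3, *Stat3* itself, *Gbx2*, a homeobox target of Stat3, and *Nr0b1*, an orphan nuclear receptor. *Socs3* read 2804 and 2352 in ESCs and 119 and 189 in V6.5 iPGCs (log2 difference -3.97, limma adjusted p = 0.000208). *Stat3* read 1232 and 1439 in ESCs and 312 and 380.2 in V6.5 iPGCs (log2 difference -1.91, adjusted p = 0.000823). Both genes were lower on every iPGC array than on either ESC array. *Gbx2* and *Nr0b1* differed by -1.82 and -1.69 (adjusted p = 0.0012 and 0.0144). EBs were grown without LIF, so in the comparison with ESCs the culture and the cell type cannot be told apart. Somatic cells also came from EBs without LIF. In them *Stat3* read 842 and 898 in V6.5 and 735 and 560 in Oct4-Gfp, and *Socs3* read 402 and 292, and 327 and 332. For both genes every somatic array lay above every iPGC array and below both ESC arrays, and the cause was not tested. Against somatic cells, 13 of the 21 genes were higher in V6.5 iPGCs and 4 were lower, and 13 were higher and 2 lower in Oct4-Gfp iPGCs. Over all probe sets the shares were 22.2% and 23.2% in V6.5 and 19.4% and 27.6% in Oct4-Gfp.

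*Klf6*, an activator induced by growth signals and tissue injury, had the reverse order. It read 1139 and 1110.4 in ESCs, 1624 and 1067 in V6.5 iPGCs, 1025 and 1145 in iPGCs of Oct4-Gfp, 5142 and 5319 in V6.5 somatic cells and 5040.0 and 5579 in Oct4-Gfp somatic cells. Every somatic array exceeded every other array, while ESCs and iPGCs overlapped. Somatic cells were 4.60-fold higher than ESCs (log2 difference 2.20, SE 0.20, limma adjusted p = 5.57e-05). iPGCs were lower than somatic cells by 1.98 on the log2 scale in V6.5 (adjusted p = 0.00013) and by 2.28 in Oct4-Gfp (adjusted p = 6.62e-05). All 5 probe sets of *Klf6* were called in both iPGC comparisons with somatic cells and in somatic cells against ESCs, where their differences ran from 1.88 to 2.75. Between V6.5 iPGCs and ESCs the representative differed by 0.22 (95% interval -0.23 to 0.68, adjusted p = 0.42). There 2 probe sets were called higher in iPGCs, 1447448_s_at by 0.68 (adjusted p = 0.0223) and 1459718_x_at by 1.01 (adjusted p = 0.00634), and the suffixes s and x mark probes that may match other transcripts. The call of 1447448_s_at was lost when only the arrays compared were fitted (adjusted p = 0.0626) and without ESC replicate 1, ESC replicate 2 or iPGC replicate 1 (0.62, 0.74 and 0.57, adjusted p = 0.105, 0.0771 and 0.0894), while 1459718_x_at was called in all 18 alternatives.

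*Klf7*, the close relative of *Klf6* known from neurons, was the flattest member by its representative, which read 472 and 459 in ESCs, 530.5 and 460.2 in V6.5 iPGCs, 519 and 528 in iPGCs of Oct4-Gfp, 499 and 623 in V6.5 somatic cells and 759.7 and 607 in Oct4-Gfp somatic cells. The groups overlapped, and none of the 4 comparisons of cell types was called, with differences between -0.37 and 0.25. Dimmer probe sets differed between iPGCs and somatic cells. Probe set 1449439_at read 164 and 146 in ESCs, 124 and 74.5 in V6.5 iPGCs, 88.7 and 89.4 in iPGCs of Oct4-Gfp, 186 and 218 in V6.5 somatic cells and 259.7 and 144 in Oct4-Gfp somatic cells. It was lower in iPGCs by 0.96 in V6.5 and by 1.01 in Oct4-Gfp (limma adjusted p = 0.0264 and 0.0211). The V6.5 call was lost with quantile normalization (adjusted p = 0.0515) and without iPGC replicate 2, somatic replicate 1 or somatic replicate 2 (-0.64, -1.06 and -0.85, adjusted p = 0.146, 0.0675 and 0.122). The Oct4-Gfp call was lost with quantile normalization (-0.62, adjusted p = 0.174) and without iPGC replicate 1, iPGC replicate 2 or somatic replicate 1 (adjusted p = 0.074, 0.0805 and 0.124). Probe set 1419355_at was lower by 1.20 in Oct4-Gfp (adjusted p = 0.00309). In V6.5 it was lower by 0.61, which was not called (adjusted p = 0.0555) but was called in 6 of 18 alternatives. It was also called higher in V6.5 somatic cells than in ESCs (0.90, adjusted p = 0.0095), a call lost without ESC replicate 2 (0.70).

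**Figure D2:**
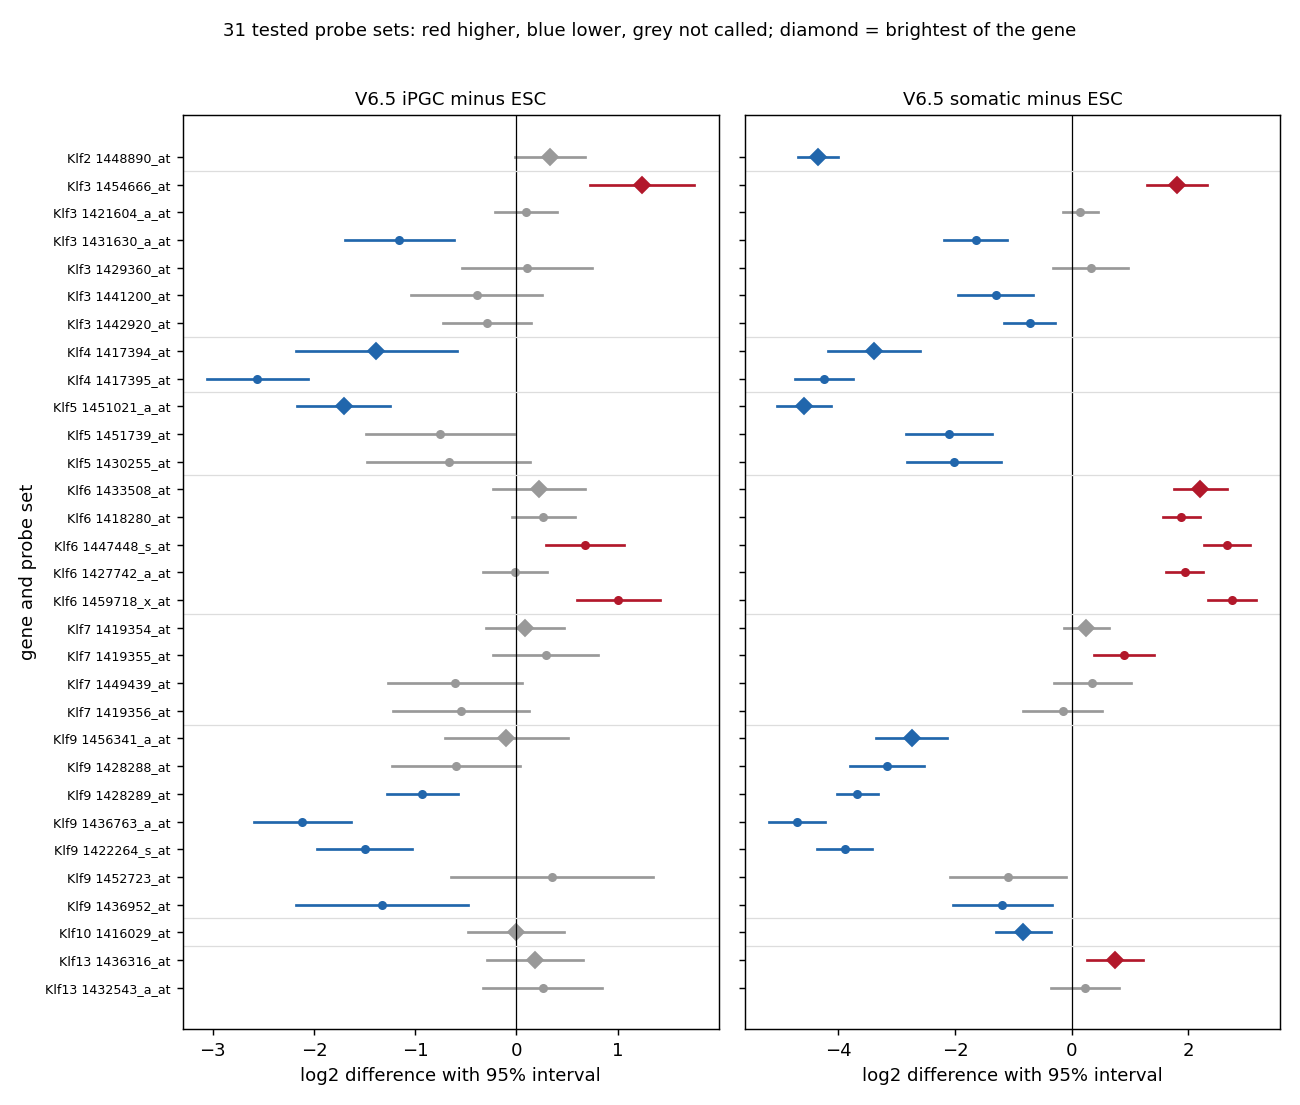
Log2 difference of each of the 31 tested probe sets in V6.5 iPGCs minus ESCs (left) and V6.5 somatic cells minus ESCs (right), with 95% intervals from limma. Red marks probe sets called higher, blue those called lower and grey those not called, and diamonds mark the representative. Probe sets of *Klf3* lie on both sides of 0 in both panels.

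*Klf3*, the repressor that binds CtBP, was the member with probe sets called in opposite directions in the same comparison. Its representative, 1454666_at, read 420.4 and 312 in ESCs, 1049.9 and 731 in V6.5 iPGCs, 1366 and 1262 in iPGCs of Oct4-Gfp, 1360.1 and 1253 in V6.5 somatic cells and 902 and 1164 in Oct4-Gfp somatic cells. Both ESC arrays lay below all 8 day 6 arrays, among which iPGCs and somatic cells overlapped. Against ESCs it was 2.36-fold higher in V6.5 iPGCs (log2 difference 1.24, SE 0.22, limma adjusted p = 0.00693) and 3.50-fold higher in somatic cells (adjusted p = 0.000291). The iPGC call was lost without ESC replicate 2 (1.03, adjusted p = 0.0506) and when only the arrays compared were fitted (adjusted p = 0.0501). Probe set 1431630_a_at went the other way, reading 1277 and 1444 in ESCs, 664 and 545 in V6.5 iPGCs, 431 and 339 in iPGCs of Oct4-Gfp, 412 and 436 in V6.5 somatic cells and 357 and 221 in Oct4-Gfp somatic cells. Both ESC arrays lay above all day 6 arrays. Its difference from ESCs was -1.16 in V6.5 iPGCs (adjusted p = 0.0107) and -1.65 in somatic cells (adjusted p = 0.000585), and the iPGC call was lost without ESC replicate 2 (-1.07, adjusted p = 0.0669). In somatic cells against ESCs 2 more were called lower, 1441200_at by 1.30 (adjusted p = 0.00475) and 1442920_at by 0.72 (adjusted p = 0.012), the latter lost without ESC replicate 2 (-0.54, adjusted p = 0.0856) or somatic replicate 1 (-0.67, adjusted p = 0.0665), so that 3 were lower and 1 higher. Probe set 1441200_at was also called higher in V6.5 iPGCs than in somatic cells (0.91, adjusted p = 0.0292), a call lost with no filter (adjusted p = 0.0502), when only the arrays compared were fitted (adjusted p = 0.0979), and without iPGC replicate 2 or somatic replicate 2 (0.73 and 0.47, adjusted p = 0.137 and 0.161). A further probe set, 1421604_a_at, stayed between 715 and 1055 on all arrays and was called in none of the 4 comparisons of cell types. The mean of the tested probe sets therefore gave -0.07 in iPGCs against ESCs and -0.23 in somatic cells against ESCs, neither called, so no direction can be given for *Klf3* as a gene. Which transcripts each probe set reads was not analysed here.

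*Klf9*, a factor known for its response to steroid and thyroid hormones, was high in ESCs and iPGCs by its representative, 1456341_a_at. It read 3222 and 2845 in ESCs, 2759 and 2891 in V6.5 iPGCs, 3534 and 4096 in iPGCs of Oct4-Gfp, 541 and 356 in V6.5 somatic cells and 657 and 1067 in Oct4-Gfp somatic cells. Somatic cells were below all others, and ESCs and V6.5 iPGCs overlapped. Somatic cells were 6.70-fold lower than ESCs (log2 difference -2.74, SE 0.26, limma adjusted p = 7.94e-05). iPGCs exceeded somatic cells 6.26-fold in V6.5 (adjusted p = 0.000131) and 4.48-fold in Oct4-Gfp (adjusted p = 0.000372). In both lines 6 of the 7 probe sets were called higher in iPGCs than in somatic cells. Of these, 1452723_at exceeded the array median only on iPGC replicate 2 of each line (127 and 94.6). It was thus tested only through the group where it was high. Its V6.5 call was lost when only the arrays compared were fitted (limma adjusted p = 0.0856). That call was also lost without iPGC replicate 2, somatic replicate 1 or somatic replicate 2 (0.70, 1.47 and 1.42). The Oct4-Gfp call was lost without iPGC replicate 2, somatic replicate 1 or somatic replicate 2 of that line (1.12, 1.26 and 1.61). Both V6.5 somatic arrays and 1 of Oct4-Gfp lay within background for this probe set. Across alternatives its difference ran from 0.70 to 2.19 in V6.5 and from 1.12 to 2.02 in Oct4-Gfp.

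Against ESCs the probe sets of *Klf9* split. The representative differed by -0.10 in V6.5 iPGCs (95% interval -0.71 to 0.51, limma adjusted p = 0.803), whereas 4 of the 7 probe sets were called lower. Probe set 1436763_a_at read 2092 and 2140.4 in ESCs, 486 and 468 in V6.5 iPGCs, 559 and 823 in iPGCs of Oct4-Gfp, 69.0 and 64.5 in V6.5 somatic cells and 101 and 139 in Oct4-Gfp somatic cells. By this probe set the 3 cell types did not overlap, in the order of *Klf4* and *Klf5*, and the iPGC difference was -2.12 (adjusted p = 0.00087). Probe sets 1422264_s_at, 1436952_at and 1428289_at gave -1.50, -1.32 and -0.93, each called (adjusted p = 0.0024, 0.0321 and 0.0048). Of these, 1436952_at exceeded the array median only on ESC arrays, so it was tested only through the group where it was high. Its call is therefore no independent support for a lower level in iPGCs. It read 21.5 and 21.8 in V6.5 iPGCs, just above background, and lost its call in 6 of 17 alternatives. They were a floor, no filter, and leaving out ESC replicates 1 and 2 (-1.57 and -1.08, adjusted p = 0.0642 and 0.163) or iPGC replicates 1 and 2 (-1.32 and -1.33, adjusted p = 0.0913 and 0.0895). The mean of the 7 gave -0.89 (adjusted p = 0.004). It includes 1436952_at and also 1452723_at, which passed the filter through iPGC arrays alone and differed by 0.35. The p-value of the mean is thus not free of this selection and adds no independent support for a lower level in iPGCs. A mean without these probe sets was not tested.

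**Figure D3:**
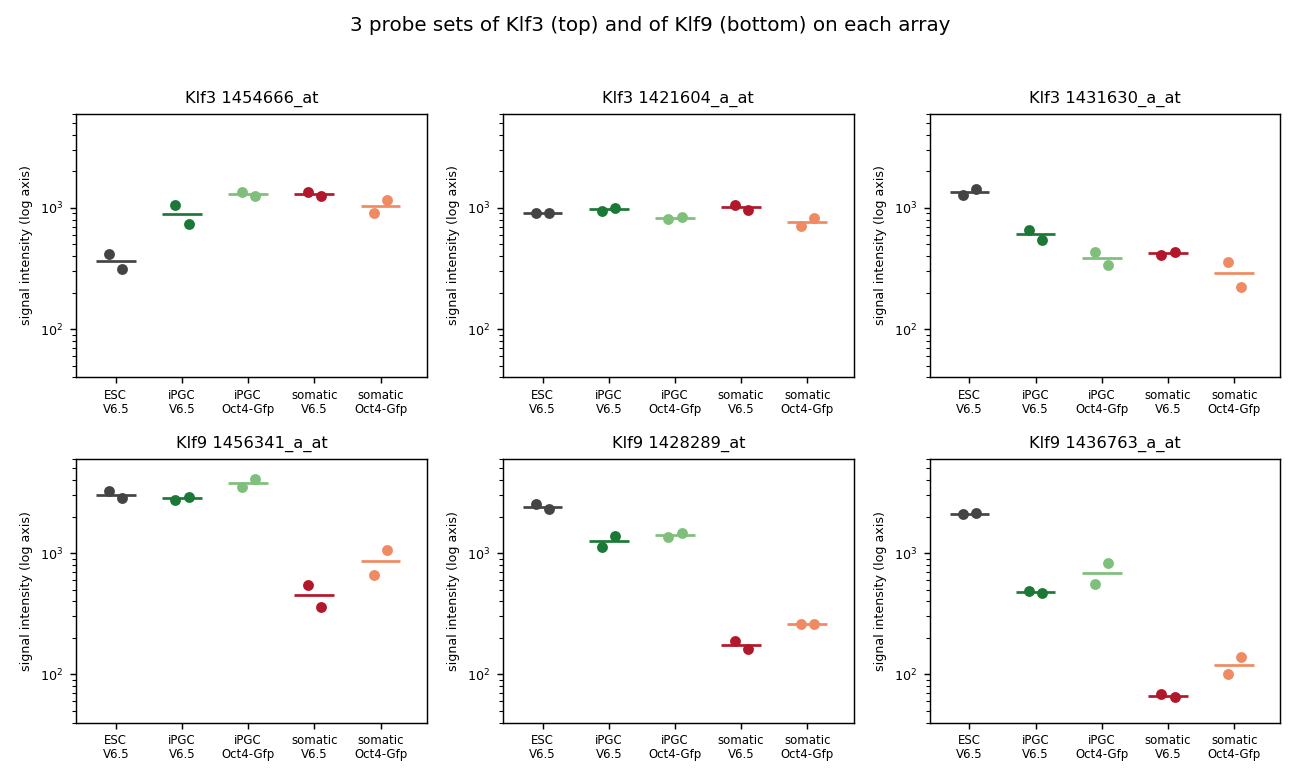
Signal intensity (log axis) of 3 probe sets of *Klf3* (top row) and 3 of *Klf9* (bottom row) on every array, with bars at group means. For *Klf3* the first probe set is lowest in ESCs and the third is highest in ESCs. For *Klf9* the first reads ESCs and V6.5 iPGCs alike at 2759 to 3222, and the third reads 2092 and 2140.4 in ESCs against 486 and 468 in V6.5 iPGCs.

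*Klf10*, induced early by transforming growth factor beta, had 1 probe set, which read 3514 and 3335 in ESCs, 3742 and 3101 in V6.5 iPGCs, 4382 and 3958 in iPGCs of Oct4-Gfp, 2272 and 1623 in V6.5 somatic cells and 2162 and 2806 in Oct4-Gfp somatic cells. Somatic arrays were the lowest, without overlap, but the differences were small. Somatic cells were 1.78-fold lower than ESCs (log2 difference -0.83, SE 0.21, limma adjusted p = 0.0095), and iPGCs exceeded somatic cells 1.77-fold in V6.5 (adjusted p = 0.0126) and 1.69-fold in Oct4-Gfp (adjusted p = 0.018). Leaving out single arrays ended these calls. The somatic call was lost without V6.5 somatic replicate 2 (-0.59, adjusted p = 0.0676). The V6.5 iPGC call was lost without iPGC replicate 1 (0.69, adjusted p = 0.0632) or somatic replicate 2 (0.58, adjusted p = 0.0863). The Oct4-Gfp call was lost without iPGC replicate 1, iPGC replicate 2 or somatic replicate 1 (0.68, 0.83 and 0.57, adjusted p = 0.0836, 0.052 and 0.11). Between iPGCs and ESCs the difference was -0.01 (95% interval -0.48 to 0.47, adjusted p = 0.983).

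*Klf13*, a regulator of chemokine and heart genes, read 782 and 621 in ESCs, 894 and 707 in V6.5 iPGCs, 822 and 1041 in iPGCs of Oct4-Gfp, 1287 and 1073 in V6.5 somatic cells and 982 and 1170.5 in Oct4-Gfp somatic cells. Both V6.5 somatic arrays exceeded every other V6.5 array. Somatic cells were 1.67-fold higher than ESCs (log2 difference 0.74, SE 0.20, limma adjusted p = 0.015), a call lost without ESC replicate 2 (0.58, adjusted p = 0.0986), without somatic replicate 1 (0.61, adjusted p = 0.0953) and by the mean of its probe sets (0.49, adjusted p = 0.054). iPGCs differed from somatic cells by -0.56 in V6.5 (adjusted p = 0.0569) and -0.21 in Oct4-Gfp (adjusted p = 0.43). The second tested probe set of *Klf13* was called in none of these comparisons.

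Between the 2 lines no member was called. The difference between lines in the contrast of iPGCs with somatic cells was called for 0 of 9 genes by limma and for 0.0152% of all probe sets. This difference had an unadjusted p under 0.05 in 2 of the 9 genes, in 7 of the 31 member probe sets and in 2758 of all 26368 tested probe sets. It was largest for *Klf4*, at 1.15 (95% interval 0.03 to 2.28, adjusted p = 0.468), and *Klf3*, at 0.92 (0.19 to 1.65, adjusted p = 0.419), and for *Klf2* it was -0.05 (-0.54 to 0.44, adjusted p = 0.952). Oct4-Gfp iPGCs against V6.5 iPGCs gave 0 called genes (2 unadjusted), where 0% of all probe sets were called, and *Klf4* was at 0.84 (0.05 to 1.64, adjusted p = 0.219). An unadjusted p under 0.05 was found there for 11 of the 31 member probe sets and for 5526 of all 26368. All 5 of *Klf6* were lower in Oct4-Gfp iPGCs. They ran from -0.28 in the representative (limma unadjusted p = 0.196) to -1.09 in 1427742_a_at (adjusted p = 0.0695). The number of calls depended on the fit, since limma-trend called 932 of all probe sets and the stricter filter 286. With limma-trend 1417395_at of *Klf4* (0.93, adjusted p = 0.0306) and 3 probe sets of *Klf6* were called (adjusted p from 0.0143 to 0.022), and the stricter filter called 1427742_a_at (adjusted p = 0.0474). Oct4-Gfp somatic cells against V6.5 somatic cells gave 0 called genes, where 0.0834% of all probe sets were called. An unadjusted p under 0.05 was found for 1 gene, for 8 of the 31 member probe sets and for 3287 of all 26368 probe sets. There *Klf9* was at 0.91 (0.30 to 1.52, limma adjusted p = 0.254), and its 7 probe sets ran from 0.07 to 0.91, none called.

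**Figure D4:**
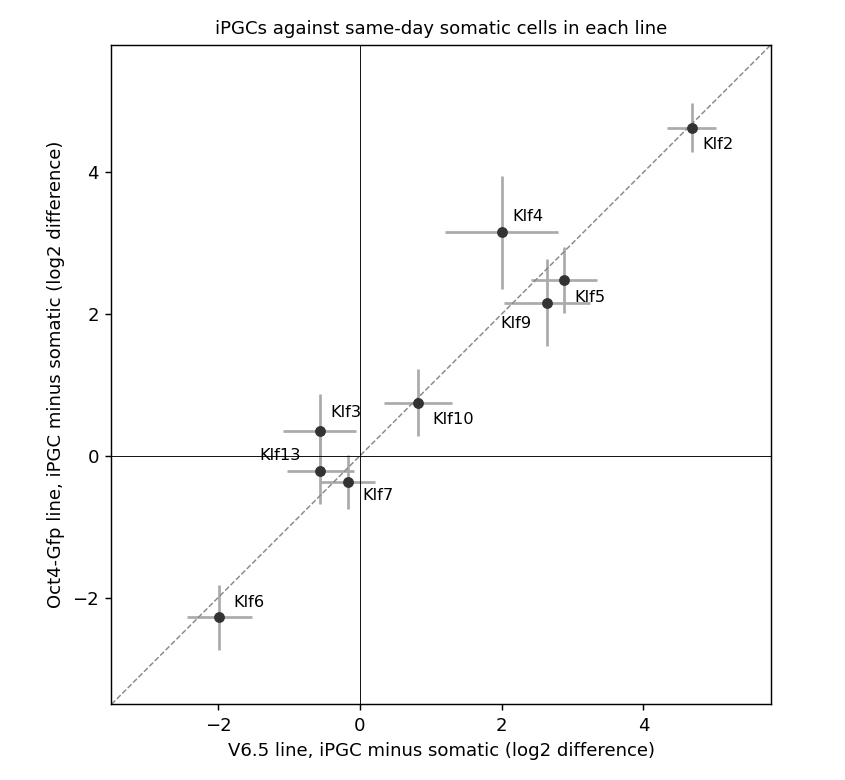
Log2 difference of iPGCs minus somatic cells in the V6.5 line (x axis) and the Oct4-Gfp line (y axis) for the representative probe set of each of the 9 genes, with 95% intervals and a dashed line of equality. *Klf2* lies at 4.68 and 4.63, *Klf6* at -1.98 and -2.28, and *Klf4* lies farthest above the line at 2.00 and 3.16.

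Of the other Krüppel-like factor genes, 7 were tested, and 2 were higher in V6.5 iPGCs than in ESCs and none lower. Over all probe sets 15.6% were higher and 11.7% lower there. *Klf14*, a maternally expressed imprinted gene, read 37.9 and 16.6 in ESCs, 82.8 and 103 in V6.5 iPGCs, 46.1 and 38.5 in iPGCs of Oct4-Gfp, 824 and 955 in V6.5 somatic cells and 959 and 563 in Oct4-Gfp somatic cells. It was high in somatic cells of both lines and was higher in V6.5 iPGCs than in ESCs by 1.40 (limma adjusted p = 0.0143). *Klf17*, the other one called there (0.79, adjusted p = 0.00889), read 30.4 and 37.2 in ESCs, 72.3 and 65.3 in V6.5 iPGCs, 115 and 141 in iPGCs of Oct4-Gfp, and lay within background on all 4 somatic arrays. iPGCs were at least 3.77-fold higher than somatic cells in V6.5 and at least 5.59-fold in Oct4-Gfp. *Klf17* exceeded the array median only on iPGC arrays, so it was tested only through the cell type where it was high. Neither its call against ESCs nor its folds over somatic cells are therefore independent support for a higher level in iPGCs. The probe set of *Klf17* also carries the suffix s, so its probes may match other transcripts. *Klf15* was higher in iPGCs than in somatic cells by 2.31 in V6.5 and 1.89 in Oct4-Gfp, and *Klf16* by 0.88 and 0.60, while *Klf12* was lower by 0.90 and 0.95 in the same order, all called. *Klf1*, the erythroid member, read 592 and 441 in V6.5 somatic cells and 87.4 and 52.0 in Oct4-Gfp somatic cells, and summed erythroid markers, of which *Klf1* is 1, read 21398 and 17015 against 4723 and 3175 on the same arrays. Of the 6 SP genes tested, 1 was called in V6.5 iPGCs against ESCs, *Sp4*, higher by 1.15 (adjusted p = 0.0111).

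Cofactors and modifiers of Krüppel-like factors numbered 15, all tested, with 2 higher and 1 lower in V6.5 iPGCs than in ESCs. Over all probe sets, here and for the lists below, 15.6% were higher and 11.7% lower in that comparison. Neither count of cofactors exceeded its share. *Ep300* and *Crebbp*, which encode acetyltransferase coactivators, were higher by 1.08 and 0.72 (limma adjusted p = 0.00299 and 0.0189), and *Fhl3*, a LIM-domain cofactor of *Klf3*, was lower by 1.38 (adjusted p = 0.0109). Against somatic cells, 6 were higher and 3 lower in V6.5 iPGCs and 7 higher and 2 lower in Oct4-Gfp iPGCs. The shares of all probe sets, here and for the lists below, were 22.2% higher and 23.2% lower in V6.5. In Oct4-Gfp they were 19.4% and 27.6%. Immediate early genes, which dissociation can induce as it can *Klf2*, *Klf4*, *Klf6* and *Klf10*, were listed beside the members. Of 19 tested, 5 were higher and 8 lower in V6.5 iPGCs than in ESCs, 4 higher and 9 lower than in V6.5 somatic cells, and 6 higher and 12 lower in Oct4-Gfp iPGCs than in somatic cells. Their summed signal was 21342 to 22016 in ESCs, 15563 to 18173 in iPGCs and 21837 to 26109 in somatic cells, so it was lowest in iPGCs, and its part in the member differences was not tested. Fibroblast markers, summed over 17 genes, read 11549 to 12099 in ESCs, 7635 to 9051 in iPGCs and 33991 to 42389 in somatic cells. Of the 14 tested, 3 were higher and 5 lower in V6.5 iPGCs than in ESCs. *Twist2* and *Fap* lay within background on both ESC arrays, *Lox*, *Dcn*, *Lum*, *Postn* and *Fap* on all iPGC arrays and *Lox* and *Fap* on all somatic arrays. The part of feeder cells in the *Klf4* and *Klf6* signals of ESCs was not tested.

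The genes most like each member over the 10 arrays, by Pearson r of log2 signal among 12199 genes, are given as a description, and the arrays share the 5 groups. *Klf2* was closest to *Trap1a* (r = 0.998), *Morc1* and *Dppa4*, *Klf4* to *Mindy3* (0.987), *Idh3a* and *Gla*, and *Klf5* to *Ccdc88c* (0.997), *Ube2c* and *Mad2l2*. *Klf6* was closest to *Podxl* (0.999), *Samd4* and *Rnd3*, *Klf9* to *Slc25a36* (0.992), *Ggct* and *Msh6*, and *Klf10* to *Xrcc6* (0.977), *Bcap29* and *Nubpl*. *Klf3* was closest to *Zup1* (0.991), *Nck1* and *Rbbp6*, *Klf13* to *Thoc7* (0.975), *Zfp867* and *Klhl7*, and *Klf7* had the lowest best value, with *Plcd4* (0.955), *Ric1* and *Hoxa5*.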

How the data were processed

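RNA from 5 sorted populations, 2 arrays each, was amplified (NuGEN Ovation Pico) and hybridised to Affymetrix arrays, and all 10 were used. The deposited values are MAS5 signal intensities on a linear scale, as the submitters' processing notes name them, and each array had been brought by the authors to 500 as its trimmed mean. The paper's methods name D-Chip values, which were not used here. Amplification and scaling assume equal total RNA per array.

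Members and gene lists were chosen with earlier results of these data known. Groups came from the sample labels. After 64 control probe sets were left out, 14.8 (25th percentile of the table) was added before log2, and the 26368 of 45101 probe sets that exceeded the array median 2 or more times were tested. Platform annotation gives 1 symbol to 34945 probe sets. A 5-group limma 3.58.1 model (R 4.3.3), with 5 residual degrees of freedom and a prior worth 2.92, was tested on simulated data. Adjustment of p-values followed Benjamini and Hochberg. Named genes were all members, at most 4 called genes of each other list (all if 5 or fewer), and the 3 genes most like each member. Marker genes within background were named for that, after their values were seen. A gene within background on every array of a group was given a fold only as a bound. Alternatives numbered 19. Replicate numbers were not used to pair the arrays in the main model. Correlations of deviations between groups ran from -0.292 to 0.262, and 2 of 10 exceeded 0.1. With 2 arrays a group these cannot show whether fractions were sorted from the same EBs. Array number limits precision. Plots used matplotlib 3.10.9.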

Additional observations from a re-analysis of the deposited data

How the results depend on the processing

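Of 1197 combinations of a member comparison with an alternative, 1173 kept their side of the threshold, 15 lost a call, 7 gained one and 2 reversed. Direction was compared only where the main fit or the alternative called a difference. Differences called in neither could change sign, as that of *Klf10* in V6.5 iPGCs against ESCs did (-0.14 to 0.13 across alternatives). The 19 alternatives were a doubled offset, a floor, no filter, a stricter filter, quantile normalization, limma-trend, only the arrays compared, the replicate number as a block, the mean of a gene's probe sets, and each array left out. Both reversals were *Klf3* by the mean of its probe sets, at -0.0679 in V6.5 iPGCs against ESCs (adjusted p = 0.672) and -0.231 in V6.5 somatic cells against ESCs (adjusted p = 0.102). That setting also called *Klf6* (0.43) and *Klf9* (-0.89) in iPGCs against ESCs and *Klf7* (-0.69) in Oct4-Gfp iPGCs against somatic cells, and it lost *Klf13* (0.49) in V6.5 somatic cells against ESCs. The mean for *Klf9* includes probe sets tested only through the group where they were high. The number of members called in V6.5 iPGCs against ESCs, 3, ranged from 1 to 3 when single arrays were left out, with 1 without ESC replicate 2. *Klf3* and *Klf13* were called lower in V6.5 iPGCs than in somatic cells with limma-trend and without V6.5 iPGC replicate 1. The replicate block left the counts of members called at 3, 8, 6 and 6 in the 4 comparisons of cell types and at 0 in the 3 of lines. In the fits that leave out an array, its group's remaining array is assumed to vary like the other groups. With 2 arrays a group, signals near background and differences under 2-fold are the least certain.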
